A study of Mus musculus with 4 samples.

Results

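Chromosome 9 was followed through 8696 array probes, of 170305 probes in the whole data set, in 4 mouse liver tumours. Members were all non-control probes placed on chromosome 9 (mm9, NCBI 37), except 40 probes that start between 7.7 and 8.1 Mb, the interval of the Yap1 and Birc genes. The chromosome was chosen by its low log2 ratios in these same tumours, so its levels below are a description and were not tested. The name "loss" held unevenly: the chromosome was the lowest of 19 autosomes in tumours 1 and 3, at rank 3 from the lowest in tumour 2 and at rank 6 in tumour 4, where it lay with the other autosomes.

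Each tumour came from a separate mouse with a C57BL/6J background and liver-specific loss of Trp53, the gene of the p53 tumour suppressor, given in the labels as Trp53-/-. The mice were untreated; their age, and the driver of the liver-specific deletion, are not given in the sources used here. Tumour DNA, labelled with Cy5, was hybridised with Cy3-labelled reference DNA pooled from 3 littermates of the same sex. The labels disagree on the reference tissue (spleen in the sample and design fields, liver in the labelling protocol), and they give Trp53-/- for the reference channel as well. Every tumour and every reference is labelled male, yet in tumour 1 X stood at a log2 ratio of 0.81 and Y at -3.03, both of which go against the male label of that tumour. Y was at -1.12, -0.53 and -0.43 in tumours 2 to 4. The chromosome mean and the values that tumour 1 moved most are also given without it. The 2 probes within Trp53 itself were at 0.52, 0.32, -0.16 and 0.29 in tumours 1 to 4 and do not show the deletion; which part of the gene was deleted is not given.

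In array comparative genomic hybridisation, tumour and reference DNA compete for the same probes, and the log2 ratio of their signals reads relative DNA copy number. A tissue sample mixes tumour cells with stromal, immune and vessel cells that keep both copies, so a chromosome lost from part of the cells gives a shallow ratio. Mouse chromosome 9 holds genes of DNA damage signalling (Atm, Atr, Chek1, Mre11a), of the oxidative stress sensor (Keap1), of TGF-beta signalling (Tgfbr2), of histone methylation (Setd2) and of Wnt signalling (Ctnnb1). Atm and Setd2 are known as tumour suppressor genes, whereas Ctnnb1, the gene of beta-catenin, is known in liver cancer for activating mutations.

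The probe nearest the middle of each of these 8 genes is printed from the deposited files, in order along the chromosome, because the probes show how much single readings varied inside one chromosome. Capitals mark CG dinucleotides.
Mre11a: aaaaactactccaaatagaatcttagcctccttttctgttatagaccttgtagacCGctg
Keap1: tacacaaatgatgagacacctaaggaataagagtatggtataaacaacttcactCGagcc
Chek1: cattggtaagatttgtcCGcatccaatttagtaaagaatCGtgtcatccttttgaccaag
Atm: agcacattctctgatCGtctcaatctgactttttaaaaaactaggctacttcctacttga
Atr: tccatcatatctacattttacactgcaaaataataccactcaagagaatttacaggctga
Setd2: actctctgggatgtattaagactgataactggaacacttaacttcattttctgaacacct
Tgfbr2: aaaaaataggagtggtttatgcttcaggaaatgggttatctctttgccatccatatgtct
Ctnnb1: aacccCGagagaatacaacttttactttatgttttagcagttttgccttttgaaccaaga
Their positions on mm9 are chr9:14610902-14610961 (Mre11a), chr9:21039273-21039332 (Keap1), chr9:36520964-36521023 (Chek1), chr9:53302615-53302674 (Atm), chr9:95806517-95806576 (Atr), chr9:110478659-110478718 (Setd2), chr9:116039878-116039937 (Tgfbr2) and chr9:120853750-120853809 (Ctnnb1). Each is 60 bases long. Whether a probe is exonic or intronic is not given, since mm9 annotation was not used here. The Atr probe, with a GC content of 33.3% and no CG, read -0.80, -0.75, -0.35 and -0.11 in tumours 1 to 4. The Chek1 probe, with 38.3% GC and 2 CG dinucleotides, read 0.14, 0.26, -0.0010 and 0.27 in the same tumours. The Atm probe gave -0.50 and -0.44 in tumours 1 and 2 but 0.22 in tumour 3. Single probes thus lay on both sides of 0 within each tumour, and the values that follow are means over many of them.

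The members span 121 Mb, from 3046525 to 124061581. Their GC content ran from 21.7% to 51.1% around a median of 36.7%, and only 4 probes were dim on any array. The noise between neighbouring probes was 0.26, 0.32, 0.16 and 0.17 (SD) in tumours 1 to 4. The file of tumour 2 marked its spread metric as out of range. There was 1 array per tumour, with tumours 1 and 4 on a shared slide, so a tumour and its array cannot be told apart. The p-values over tumours are from exact sign-flip tests, two-sided, which cannot go below 0.13 with 4 tumours.

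The chromosome-wide ratio fell into a graded series over the tumours. Its mean was -0.31 ± 0.0067 (SE over 122 bins of 1 Mb, taken as independent), -0.19 ± 0.0050, -0.10 ± 0.0045 and -0.025 ± 0.0034 in tumours 1 to 4. Tumour DNA from chromosome 9 thus stood at 80.7%, 87.4%, 93.2% and 98.3% of the reference. Over the tumours the mean was -0.16 ± 0.12 (SD, n = 4), and leaving out each tumour in turn gave -0.20 to -0.11, the latter without tumour 1. No tumour had a mean above 0, but in tumour 4 the means of the other 16 autosomes were all below 0 too.

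Each tumour was also set beside its own other chromosomes. The 16 autosomes other than 9, 12 and 15 had chromosome means between -0.027 and 0.036 in tumour 1 and between -0.046 and 0.024 in tumour 3, so chromosome 9 lay outside both ranges. In tumour 2 their range was wide, from -0.20 on chromosome 13 to 0.097, and it included chromosome 9 at -0.19. Only chromosome 13 was that low: the next lowest was chromosome 7 at -0.046. In tumour 4 they ran from -0.034 to -0.0033, again including chromosome 9. Against the mean over the probes of those autosomes, the chromosome 9 mean differed by -0.31, -0.18, -0.10 and -0.0033 (log2) in tumours 1 to 4.

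The loss was seen in most single probes of tumours 1 to 3. Of the members, 87.0%, 71.1% and 72.2% read below 0 in tumours 1, 2 and 3, against 47.4%, 48.8% and 48.8% of the probes of the other 16 autosomes. In tumour 4 the shares were 51.3% and 50.1%. In 1 Mb bins the picture was sharper: all 122 bins of chromosome 9 lay below 0 in tumours 1 and 2, 116 in tumour 3 and 94 in tumour 4. On the other 16 autosomes 51.8%, 62.2%, 42.9% and 71.6% of bins lay below 0, so the 77.0% of tumour 4 is close to its own background.

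**Figure D1:**
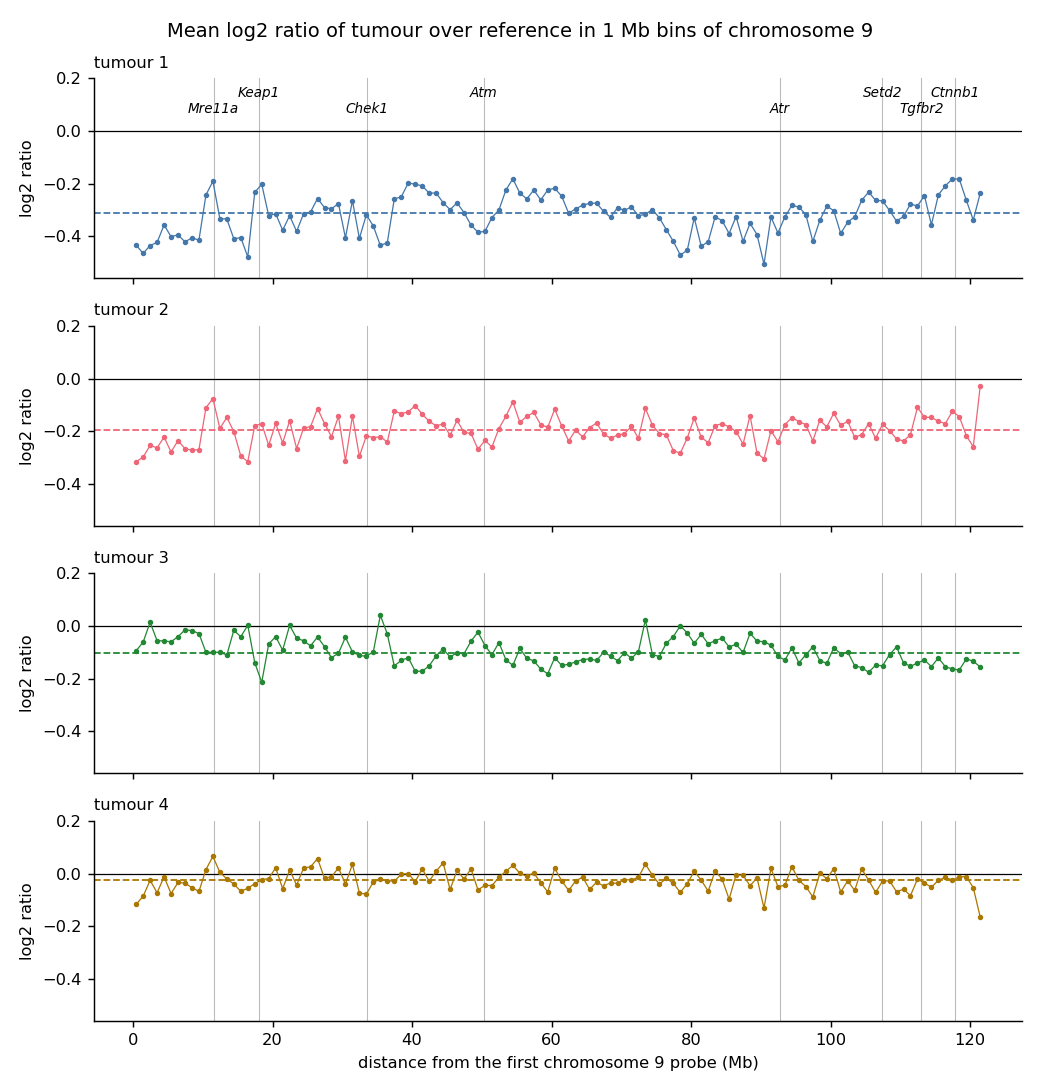
Mean log2 ratio of tumour over reference (vertical axes) in 1 Mb bins of chromosome 9 against the distance from the first probe in Mb (horizontal axis), 1 panel per tumour; dashed lines are the chromosome means and grey lines the positions of 8 genes. Every bin lies below 0 in tumours 1 and 2, and in tumour 4 the bins scatter close to 0.

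Segments, stretches of probes with a common mean, were called lost when they held at least 5 probes and had a mean of -0.2 or below. In tumour 1, 8693 of 8695 measured members (99.98%) lay in lost segments, where 9.24% of all autosomal probes did. The other 2 members formed a segment with a mean of -2.06, not called only because it held fewer than 5 probes. At a threshold of -0.3 the share called lost was 52.5%. Tumour 2 had none, beside 4.46% of all autosomal probes, although the whole chromosome formed 1 segment with a mean of -0.19, just short of the threshold. Tumour 3 had 177 members called lost (2.04%), beside 0.143% of all autosomal probes, and tumour 4 had none, beside 0.0867%. Tumour 2 passed to 100% under a threshold of -0.1, normexp background correction or centring on the other 16 autosomes, so its count of 0 says only that it missed the threshold by less than these choices move it.

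The single called stretch of tumour 3 ran from 20485127 to 22198048 and held 53 gene names, Keap1 among them. Its mean was -0.20 in tumour 3, beside -0.22, -0.18 and -0.038 over the same probes in tumours 1, 2 and 4. For tumour 3 this was lower than the -0.10 of its whole chromosome, whereas in tumour 1 the same probes lay above its chromosome mean of -0.31. After correction on the mean probe GC of the 1 Mb bin (an alternative added with the data in view) the stretch stood at -0.19 in tumour 3, still below its chromosome. The call itself was lost (0% of members) under that correction, probe GC correction, normexp correction or a doubled segmentation penalty.

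A stretch where few probes carried a gene name showed the opposite order. Over 187 probes from 37807509 to 39805942, of which 6.42% carried a gene name, tumour 1 was at -0.46 and tumour 2 at -0.26, both below their chromosome means, while tumour 3 was at 0.010 and tumour 4 at -0.039. Probe GC averaged 36.0% there, below the chromosome's 36.8%. With the regional correction these values became -0.38, -0.21, -0.039 and -0.017. Tumour 3 therefore had its highest values where tumour 1 had some of its lowest, and the correction narrowed the gap without closing it.

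In tumours 1 to 3 the low ratios reached from end to end. All 13 windows of 10 Mb lay below 0 in every tumour. For tumour 4 this sets chromosome 9 apart from nothing, since the means of its other 16 autosomes were all below 0 (highest -0.0033). The window means ran from -0.42 (0 to 10 Mb) to -0.24 (40 to 50 Mb) in tumour 1 and from -0.27 to -0.15 in the same windows of tumour 2. In tumour 3 they ran from -0.15 (120 to 130 Mb) to -0.049 (80 to 90 Mb), and in tumour 4 from -0.063 (0 to 10 Mb) to -0.0045 (20 to 30 Mb). No window passed the test of its deviation from the chromosome mean: with limma, 0 of the 13 windows passed an adjusted p of 0.05 and 0 had an unadjusted p under 0.05, where 0% of all 256 autosomal windows passed and 12 had an unadjusted p under 0.05.

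Tumours 1 and 2 shared a pattern of highs and lows, and tumour 3 mirrored it. Window deviations from the chromosome mean correlated across the 13 windows at 0.89 between tumours 1 and 2, at -0.88 between tumours 1 and 3 and at -0.75 between tumours 2 and 3. The tumours shared the probes and the kind of reference, and windows are not replicates, so these correlations are a description. The window means also followed the mean probe GC of the window, with a correlation of 0.86, 0.81, -0.84 and 0.31 in tumours 1 to 4. After correction on the GC of the 1 Mb bin the correlations between tumours were 0.75, -0.73 and -0.47, and the range over windows narrowed from 0.17 to 0.11 in tumour 1 and from 0.098 to 0.084 in tumour 3.

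**Figure D2:**
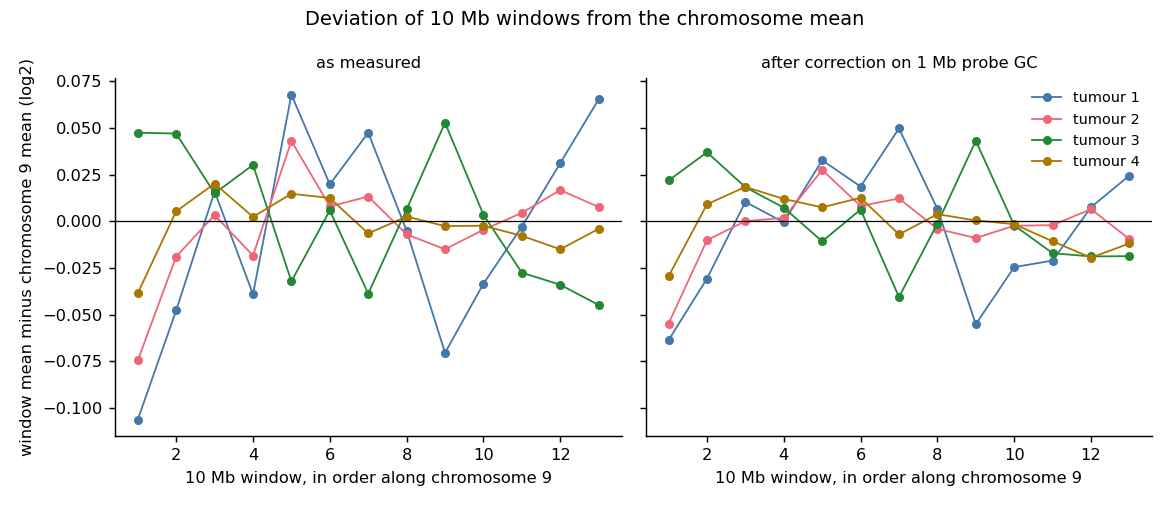
Deviation of each 10 Mb window from the chromosome 9 mean of its tumour, in log2 units (vertical axis), for the 13 windows in order (horizontal axis), as measured (left) and after correction on the mean probe GC of the 1 Mb bin (right). Tumours 1 and 2 move together (r = 0.89) and tumour 3 opposite to tumour 1 (r = -0.88), and the correction makes the swings smaller.

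Chromosome 9 was less uneven than most of the other 16 autosomes. The SD of 1 Mb bins within chromosome 9 was 0.074, 0.055, 0.049 and 0.037 in tumours 1 to 4, against medians of 0.077, 0.058, 0.053 and 0.041 over the other 16 autosomes. Of those 16, 10, 14, 13 and 15 had a larger SD than chromosome 9 in tumours 1 to 4. The scatter of single probes alone would give bin SDs of 0.036, 0.042, 0.023 and 0.025 on chromosome 9, so part of its unevenness in each tumour went beyond it. The correlation of bins with their GC was also alike, at 0.56, 0.41, -0.48 and 0.15 on chromosome 9 and at medians of 0.53, 0.37, -0.48 and 0.25 over the other 16 autosomes.

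From one end of chromosome 9 to the other the slopes differed in sign between tumours. The fitted change per 10 Mb was 0.0040, 0.0025, -0.0053 and -0.0010 in tumours 1 to 4 (exact sign-flip p = 1). Probes with a gene name and probes without one differed by 0.010, -0.00011, -0.015 and 0.0097 (exact sign-flip p = 1 over 4 tumours; 5898 named and 2798 unnamed probes). At the edges of the omitted interval the 43 probes in the 0.5 Mb to its left had -0.33, -0.22, -0.060 and 0.0027, the 40 omitted probes -0.25, -0.15, -0.11 and -0.00042, and the 24 probes to its right -0.49, -0.38, -0.10 and -0.16 in tumours 1 to 4. The right side was lower than the omitted probes in tumours 1, 2 and 4, with SEs over probes of 0.052, 0.066 and 0.045 on the right and of 0.042, 0.049 and 0.026 within. With the omitted probes included, the mean over the tumours was again -0.16.

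The ratio varied with probe GC, while the depth of chromosome 9 below the other autosomes hardly did. Within chromosome 9, the log2 ratio went up with GC by 0.37, 0.26 and 0.14 per 10 percentage points in tumours 1, 2 and 4 and was at -0.032 per 10 points in tumour 3 (mean 0.19 ± 0.17 SD, n = 4; exact sign-flip p = 0.25; mean 0.12 without tumour 1). On the other 16 autosomes the slopes were 0.35, 0.24, 0.14 and -0.051 for the same tumours. Probes were then divided into 4 GC classes, from 21.7% to 33.3%, 35.0% to 36.2%, 36.7% to 37.9% and 38.3% to 51.1%. In tumour 1, chromosome 9 went from -0.48 in the lowest class to -0.24 in the highest, and the other autosomes from -0.16 to 0.070, so the difference stayed between -0.32 and -0.31. The difference ran from -0.19 to -0.17 in tumour 2, from -0.11 to -0.097 in tumour 3 and from -0.0074 to -0.0019 in tumour 4. These ranges within a tumour are small beside the differences between tumours.

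**Figure D3:**
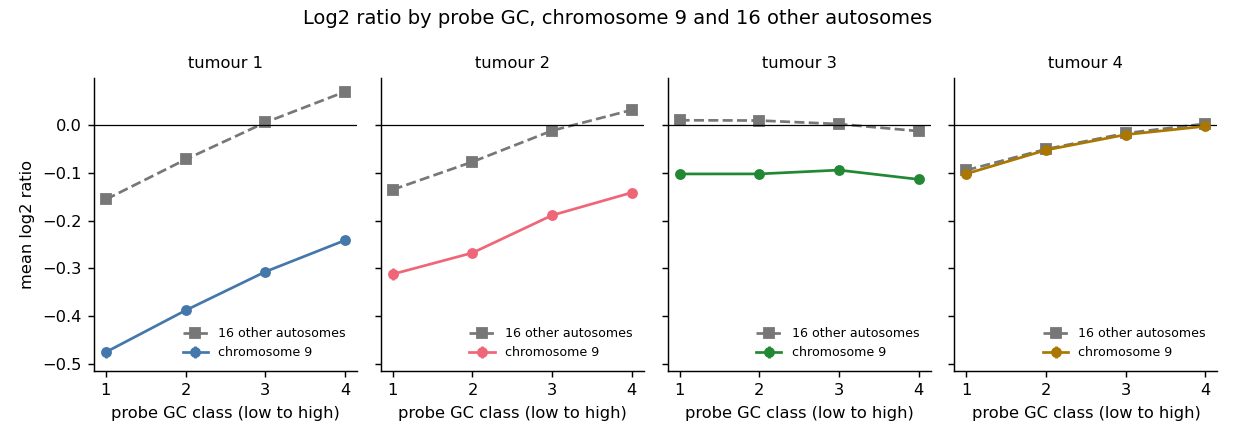
Mean log2 ratio (vertical axis) in 4 classes of probe GC (horizontal axis, from low to high) for chromosome 9 (circles, bars are the SE over probes and mostly smaller than the symbols) and for the other 16 autosomes (squares), 1 panel per tumour. The vertical distance between the lines stays between -0.32 and -0.31 in tumour 1, and the lines lie on each other in tumour 4.

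The 8 named genes did not all sit at the chromosome's level. Each gene is given as the mean of every probe across its named probes and 50 kb to either side (11 to 19 probes), with the SD over the 4 tumours. None of the 8 passed the limma test of the deviation from the chromosome 9 mean over the 4 tumours. Setd2 passed under normexp correction (limma, adjusted p = 0.050), just inside the threshold. Without tumour 3, Mre11a, Ctnnb1, Setd2, Atm and Atr passed (limma, adjusted p = 0.00012, 0.00047, 0.0075, 0.025 and 0.049), where 38.6% of all autosomal items passed too. With slide as a fixed block, an alternative added with the data in view, Keap1, Setd2 and Mre11a passed (limma, adjusted p = 0.0088, 0.039 and 0.044), beside 19.9% of all autosomal items.

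Among the DNA damage genes, Atm, whose kinase answers DNA double-strand breaks, had -0.46, -0.28, -0.068 and -0.054 in tumours 1 to 4 (mean -0.22 ± 0.19). It was deepest in tumour 1 and shallow in tumours 3 and 4. Atr, the kinase of replication stress, followed the same order with -0.47, -0.29, -0.10 and -0.014 (mean -0.22 ± 0.20). Without tumour 1 the means of Atm and Atr were -0.13 and -0.13. Chek1, a kinase that acts downstream of Atr, had -0.35, -0.26, -0.15 and -0.082 (mean -0.21 ± 0.12). Its value came from the flanks: the 2 probes inside Chek1 averaged 0.096 over the tumours, with 0.13, 0.20, -0.11 and 0.15. Mre11a, a nuclease that processes broken DNA ends, had -0.11, -0.012, -0.19 and 0.088 (mean -0.055 ± 0.12), the highest mean of the 8. In tumours 1 and 2 it lay 0.20 and 0.18 above the chromosome mean and in tumour 3 it lay -0.088 from it. The adjusted limma p-values of the deviations were 0.33 for Atm, 0.32 for Atr, 0.23 for Chek1 and 0.24 for Mre11a.

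Keap1, whose product marks the antioxidant transcription factor Nfe2l2 for degradation, had -0.31, -0.26, -0.29 and -0.14 (mean -0.25 ± 0.080). Its values in tumours 1 to 3 lay within each other's SE over probes, although the chromosome means of these tumours were -0.31, -0.19 and -0.10. Its deviation was -0.0029 in tumour 1 and -0.19 in tumour 3 (limma, adjusted p = 0.17). Keap1 has 1 probe of its own and shares its flanks with neighbours. With flanks of 500 kb its mean was -0.15, a deviation of 0.0051. Setd2, which trimethylates histone H3 at a lysine in transcribed genes, had -0.45, -0.30, -0.15 and -0.088 (mean -0.25 ± 0.16; limma, adjusted p = 0.13), below the chromosome mean in each tumour. With flanks of 500 kb its mean was -0.15 and its deviation 0.0046.

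Tgfbr2, a receptor of TGF-beta, had -0.28, -0.068, -0.27 and -0.017 (mean -0.16 ± 0.14), at the chromosome mean on average (limma, adjusted p = 0.98). Its deviations from that mean were 0.028, 0.13, -0.17 and 0.0071 in tumours 1 to 4. Ctnnb1, the gene of beta-catenin, had -0.047, -0.051, -0.20 and 0.046 (mean -0.062 ± 0.10; limma, adjusted p = 0.30). In tumour 1 it lay 0.26 above the chromosome mean. The 2 probes inside Ctnnb1 were at -0.23, -0.099, -0.17 and -0.078. Ctnnb1 and Mre11a were thus the shallowest of the 8 in tumours 1, 2 and 4, and they were not in tumour 3.

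**Figure D4:**
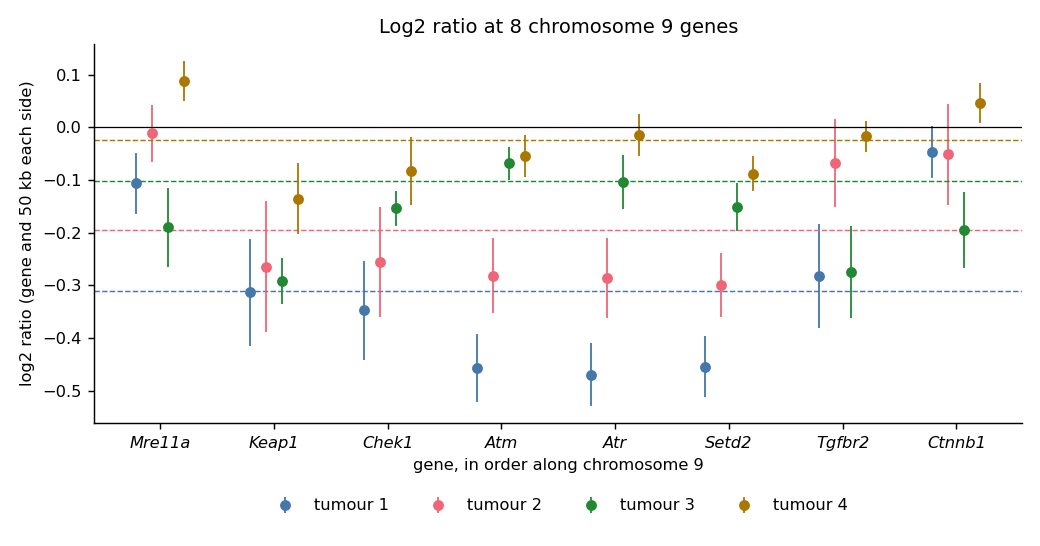
Log2 ratio (vertical axis) at 8 genes with 50 kb on each side, in order along chromosome 9 (horizontal axis), 1 point per tumour with the SE over probes; dashed lines are the chromosome 9 means of the tumours in the same colours. Atm, Atr and Setd2 lie below the line of tumour 1, and Mre11a and Ctnnb1 well above it.

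The 7 lists of chromosome 9 genes gave the wider view, with 49 of 55 genes measured. Of the 49, the numbers at or below -0.2 were 36, 26, 9 and 0 in tumours 1 to 4. Over all measured gene items of chromosome 9 the counts were 931, 543, 150 and 16 of 1174, and over all autosomal items the shares were 9.18%, 11%, 3.08% and 1.39%. Since the chromosome was chosen for low values, nothing is read from these shares. Of the 49, 48 were below 0 in tumours 1, 2 and 3, beside 1087 of the 1174 chromosome 9 items and 23.2% of all autosomal items. The exception was Csk, a kinase that restrains Src, at 0.049 in tumour 2. In all 4 tumours 31 of the 49 were below 0, beside 732 of the 1174 and 19.5% of all autosomal items. None of the 49 passed the limma test of the deviation from the chromosome mean over the 4 tumours.

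Of all 1174 chromosome 9 items, 931, 543, 150 and 16 were at or below -0.2 in tumours 1 to 4. The counts by list stand beside these, and nothing particular to a list is read from them. In the DNA damage list (10 of 11 measured), 9 genes were at or below -0.2 in tumour 1, 6 in tumour 2 and none in tumours 3 and 4. The lowest by mean was Topbp1, an activator of Atr, with -0.42, -0.23, -0.13 and -0.16, and the highest was Mre11a. The mean of Topbp1 was -0.24, or -0.42 over the probes inside the gene. In the antioxidant list (5 of 7 measured), all 5 were at or below -0.2 in tumour 1, 4 in tumour 2 and 2 in tumour 3. Keap1 was its lowest member and Gclc, a subunit of the enzyme that limits glutathione synthesis, its highest at -0.16 ± 0.16. In the TGF-beta and BMP list (5 of 5), the mean was lowest at Smad6, an inhibitory Smad, with -0.25, -0.23, -0.28 and -0.11, and highest at Acvr2b, an activin receptor, with -0.082 ± 0.096.

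The Wnt list (4 of 4) was the shallowest by the median of its genes' means (-0.099), with medians of -0.20, -0.12, -0.14 and 0.045 in tumours 1 to 4. Its lowest member was Ryk, a Wnt co-receptor, at -0.17 ± 0.17, and its highest was Ctnnb1. In the chromatin list (6 of 7 measured), Dnmt1, the maintenance DNA methyltransferase, was lowest with -0.37, -0.32, -0.25 and -0.11 (mean -0.26 ± 0.11; limma, adjusted p = 0.11; mean -0.15 with flanks of 500 kb), and Carm1, an arginine methyltransferase, was highest at -0.11 ± 0.091. Dnmt1, Carm1 and Smarca4 lie near Keap1 and are among the names of the stretch called lost in tumour 3.

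Counts at or below -0.2 over all 1174 chromosome 9 items were 931, 543, 150 and 16 in tumours 1 to 4. In the liver function list (8 of 10 measured), the counts were 5, 2, 1 and 0. Its highest member by mean was Cyp1a1, a xenobiotic-metabolising enzyme, with -0.18, -0.034, -0.11 and 0.064. In the signalling and growth control list (11 of 11), Rhoa, a small GTPase, was lowest with -0.33, -0.31, -0.15 and -0.17, and Ets1, a transcription factor, was highest with -0.19, -0.0085, -0.035 and 0.15 (limma, adjusted p = 0.085, and 0.038 under normexp). The mean of Ets1 was -0.021, and 0.036 without tumour 1. Over all 1174 gene items of chromosome 9 the medians were -0.29, -0.19, -0.13 and -0.022, against 0.025, -0.014, -0.033 and -0.014 over all autosomal items.

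Against their own chromosome, 3 of 1174 chromosome 9 gene items were lower and 0 were higher at an adjusted limma p of 0.05. Among all 19924 autosomal items 0.417% were lower and 0.0652% higher, so the 3 stand near the background. They were AK042477 with a deviation of -0.22 ± 0.027 (SE; limma, adjusted p = 0.029), A630095E13Rik with -0.20 ± 0.030 (limma, adjusted p = 0.045) and AK016867 with -0.25 ± 0.036 (limma, adjusted p = 0.046), each below its chromosome in 4 of 4 tumours. All are transcript names of the array design. An unadjusted p under 0.05 was reached by 278 items of chromosome 9 and 4731 of all items.

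AK042477 and A630095E13Rik are neighbours and share probes. The single probe of A630095E13Rik, at 36443321 to 36443380, read -0.90, -0.97, -1.33 and -1.30 in tumours 1 to 4. It was thus lower in tumours 3 and 4, whose chromosomes were shallow, than in tumours 1 and 2. Without it, its region stood at -0.42, -0.21, -0.10 and -0.11, and that of AK042477 at -0.45, -0.30, -0.13 and -0.14, close to the chromosome means in tumour 3. The region of AK016867, at 35089880, differed: 5 of its 6 probes in tumour 1 were at or below -0.50, 4 of them lying in Fam118b, and the region had -0.60, -0.54, -0.29 and -0.19. The count of 3 became 0 without tumour 2 or tumour 4 (101 and 120 at an unadjusted p under 0.05). Without tumour 1 the count was 2, both higher than their chromosome and neither among the 3. Without tumour 3 it was 437, where 38.6% of all autosomal items passed. The count was 54 under normexp correction, 14 against the chromosome median and 230 with slide as a fixed block.

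The implied share of cells that had lost 1 copy of chromosome 9 was computed as if all other cells held 2 copies and the array responded in full. It came to 38.7% in tumour 1 (37.2% to 40.1%) and 25.2% in tumour 2 (24.0% to 26.4%). Tumour 3 gave 13.7% (12.5% to 14.8%), and for tumour 4 it was 3.38% (2.48% to 4.28%). The 95% intervals cover only the scatter of 1 Mb bins, taken as independent. They are too narrow where neighbouring bins move together. Measured from the probe mean of the other 16 autosomes in place of 0, the share was 38.9%, 23.1%, 13.6% and 0.45%. Centring on the median of those autosomes left it at 40.6%, 26.3%, 14.3% and 3.32%, and the median in place of the mean gave 36.9%, 21.7%, 12.9% and 0.71%. The share of tumour 4 thus depended on the summary used. Fewer cells with the loss, more admixed normal cells and a compressed array response cannot be told apart in these bulk samples.

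Other readings of the same data moved the estimate and do not bound it. If X in tumour 1 stood at 2 copies against 1, its ratio of 0.81 in place of 1 would give the response of that array. With this response assumed for all 4 arrays, the shares would be 46.4%, 30.5%, 16.7% and 4.15%. Under normexp correction they were 47.0%, 26.7%, 17.5% and 2.41%. Centring on the mode lowered the chromosome means to -0.34, -0.23, -0.10 and -0.045 in tumours 1 to 4, for which no share was computed. By 10 Mb window the share ran from 30.9% to 50.1% in tumour 1 and from 19.9% to 34.0% in tumour 2. For tumour 3 it ran from 6.73% to 19.4%, and for tumour 4 from 0.62% to 8.55%. The order of the 4 tumours was the same in each of these chromosome-wide readings.

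Chromosome 12, also low in these tumours, gave implied shares of 36.2%, 29.9%, 9.90% and 2.44%, and chromosome 15, which was high, gave shares with 1 extra copy of 40.3%, 43.6%, 12.7% and -0.50%. The size of the chromosome 9 change minus that of chromosome 12 was 0.022, -0.039, 0.029 and 0.0069 on the log2 scale in tumours 1 to 4 (mean 0.0046 ± 0.031 SD). Against chromosome 15 it was 0.045, -0.091, 0.013 and 0.021 (mean -0.0029 ± 0.060 SD). On this scale chromosome 9 was thus changed more than either in tumours 1 and 3 and less than either in tumour 2. By implied share, chromosome 15 exceeded chromosome 9 in tumour 1 as well (40.3% against 38.7%). In tumour 4 all 3 lay within the range of the other 16 autosomes (-0.034 to -0.0033), so their order there is not read. Those 3 chromosomes were chosen for their changes, so these differences are described with no test.

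**Figure D5:**
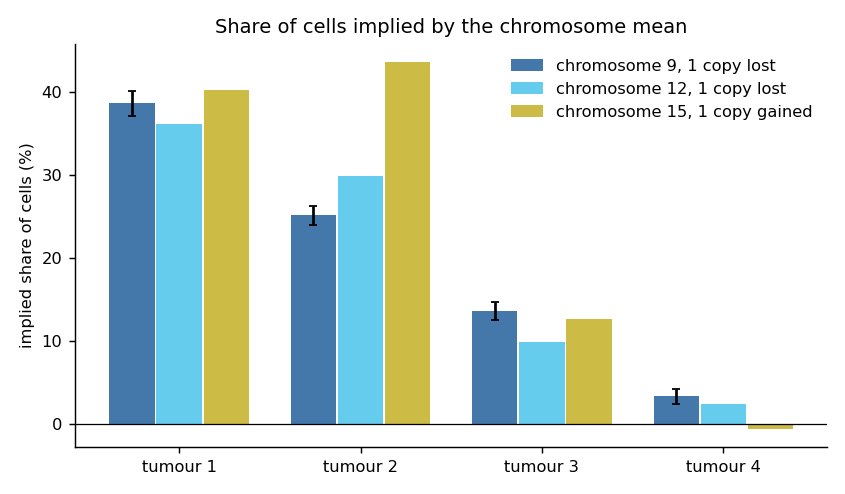
Share of cells in percent (vertical axis) implied by the chromosome mean for 1 copy of chromosome 9 or 12 lost and 1 copy of chromosome 15 gained, by tumour (horizontal axis); bars on chromosome 9 are 95% intervals over 1 Mb bins. Chromosome 9 steps down from 38.7% in tumour 1 to 3.38% in tumour 4, and chromosome 15 exceeds it in tumours 1 and 2.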

How the data were processed

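Genomic DNA of 4 tumours was measured on 2-colour Agilent arrays read with Agilent Feature Extraction 10.7.3.1, per the submitters' processing notes. The deposited log10 ratios are red (tumour, Cy5, per the labels) over green (reference, Cy3), background-subtracted and linearly dye-scaled, per the file headers. The deposited intensity values are, per the file headers, the processed, mean and background signals of each channel. The deposited value table held the same ratios at 100% of features (within 0.5%). Median red signals were 1163, 527.9, 522.2 and 1286, and green signals 658.2, 348.2, 164.6 and 577.4, in tumours 1 to 4.

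Ratios were turned to log2. Control spots and outlier spots (93 to 126 per array) were left out, spots of a probe averaged, and arrays centred on the autosomal median. Segments came from exact penalised least squares (penalty 4 times the log of the probe number times the noise variance). Deviations of 10 Mb windows (at least 50 probes) and of gene items (at least 3 probes) from their chromosome mean were tested with limma 3.58.1 in R 4.3.3 (moderated intercept, Benjamini-Hochberg under 0.05 over all autosomal windows or items). Segment calling, probe GC correction with its slope and the limma intercept were tested on simulated data, and the sign-flip test on fixed values. The other steps were not tested in this way. The members and lists were chosen with earlier results of these data known. Named were the 8 genes of the description, the lowest and highest member of each list and members past the test, chromosome 9 genes past it (up to 5 each way), and the lowest and highest windows; Csk, Smarca4, Fam118b and the stretches were singled out after their values were seen. Of the 49 list names measured, 48 are current symbols in RefSeq (another build, used for names only). A small stretch and a further item that the rule picked count in the values but are not reported here. Alternatives were normexp correction (offset 50), other centrings, thresholds, penalties, flanks and windows, the deposited value table, bright probes only, probe GC correction and each tumour left out; regional GC correction and slide as a fixed block were added after the data were seen.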

Additional observations from a re-analysis of the deposited data

Results flagged for a closer look

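The GC slope of chromosome 9 minus that of the other 16 autosomes was 0.023, 0.021 and 0.019 per 10 percentage points in tumours 1 to 3 and -0.0047 in tumour 4. The value of tumour 4 lies apart, with a gap to the next of 0.88 of the whole range, beyond Dixon's 95% critical value for 4 samples. It was the only case among the 42 sets of 4 values checked, and chance gives about 1 in 20.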

How the results depend on the processing

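The chromosome means kept their sign and moved by less than the spread between tumours under every alternative run, the regional GC correction included. Calls were less stable. Tumour 2 had 100% of members called lost at a threshold of -0.1, under normexp and with centring on the other 16 autosomes, and tumour 3 had 57.2% at -0.1. The mean called share without a tumour ranged from 0.68% to 34.0%, the lower without tumour 1. The count of genes off the chromosome level was 54 under normexp (7.32% of all items), 14 against the chromosome median, 8 of 538 with a flank of 0 kb, 0 with a flank of 500 kb (99 at an unadjusted limma p under 0.05) and 0 to 437 without a tumour. The Chek1 mean turned to 0.096 with a flank of 0 kb. The slope along the chromosome was -0.00028 after GC correction and -0.0012 to 0.0018 without a tumour. The size of the change minus that of chromosome 12 was -0.0035 to 0.019 without a tumour; minus that of chromosome 15 it was 0.013 with centring on the other 16 autosomes and -0.019 to 0.026 without a tumour. The cause was not tested. Slide as a random block was not run, since limma's duplicateCorrelation gave no estimate with 3 slides among 4 arrays. With slide as a fixed block, added after seeing the data, 0 windows and 230 of 1174 genes passed (0.391% and 19.9% of all autosomal windows and items), with the spread taken only from tumours 1 and 4, which share a slide. No paired analysis was possible because there was 1 group of tumours. With 1 array per tumour, noisier tumour 2 gives the least firm single-gene values.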
